A study of Mus musculus with 6 samples.

Results

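The G1 regulators described here are 10 genes of the 41079 in the count and FPKM tables, chosen by symbol: the cyclin-dependent kinase (CDK) inhibitor genes Cdkn1a, Cdkn1b, Cdkn1c, Cdkn2a, Cdkn2b and Cdkn2c, the D cyclin genes Ccnd1, Ccnd2 and Ccnd3, and Myc. The rule itself uses symbols and no measured value, although the genes were picked with earlier results of these data known. RNA-seq was performed on 6 libraries of primary microglia shaken off mixed glial cultures from the brains of C57Bl/6N mice aged 1 to 3 days. The 3 control libraries came from microglia in serum-free DMEM/F12, and the 3 optimized libraries from microglia in the same medium with human TGF-β1, IL-34 and CX3CL1 at 100 ng/mL each. The labels of the optimized libraries name these cytokines alone, whereas the methods of the study add cholesterol, insulin-transferrin-selenium solution and a collagen IV coating, so a difference between the groups belongs to the combination. By the methods, all 6 libraries share their way of preparation. Cells of several neonatal brains were pooled in a flask, and the flasks received medium conditioned by L-929 fibroblasts, a source of M-CSF. Microglia were shaken off at several times, weeks after isolation, and the harvest used for each library is not given in the sources used here. The harvested microglia adhered briefly in medium with serum. For the time in control or optimized medium, the methods give a range of days over all stimulations, and the time for these libraries is not given in the sources used here. The libraries are described as biological replicates, but no label names separate cultures or animals. The p-values thus set the group difference against the spread between these samples, whatever its source.

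Progress of a cell through G1, the phase before DNA replication, is driven by D cyclins bound to CDK4 or CDK6 and by E cyclins bound to CDK2, which phosphorylate the retinoblastoma protein and release E2F transcription factors. The INK4 inhibitors (Cdkn2a to Cdkn2d) bind CDK4 and CDK6 themselves, while the CIP/KIP inhibitors (Cdkn1a to Cdkn1c) bind cyclin-CDK complexes. In epithelial cells TGF-β is known to arrest G1 by inducing Cdkn2b and Cdkn1a through SMAD proteins and by repressing Myc, and in microglia the CSF1 receptor, which IL-34 also engages, is known for its role in survival and proliferation.

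The 250 bases before the annotated start were taken for the inhibitor genes that a TGF-β signal is best known to induce, Cdkn1a and Cdkn2b, and for Cdkn1b, which is shown because it is the inhibitor whose difference did not pass the test. The sequences are from RefSeq (GRCm38.p6), in which 6 of the 10 genes had promoter entries, 10 in all, and Ccnd1, Ccnd2, Cdkn1c and Myc had none. Each window matched 1 place on its GRCm39 chromosome. The upstream Cdkn1a window is chr17:29309703-29309952 on the plus strand, of which the last 17 bases lie in an annotated Cdkn1a exon. The second Cdkn1a window, chr17:29312493-29312742 on the plus strand, lies within the gene, with 5 bases in an exon. The Cdkn1b window is chr6:134897114-134897363 on the plus strand, just before the gene, and the Cdkn2b window is chr4:89229270-89229519 on the minus strand, with 7 bases in the Cdkn2b exon. Each is written 5′ to 3′ along the gene, and capitals mark the SMAD box core (CAGAC), the GC box bound by SP1 (GGGCGG) and the p53 half-site, each on either strand.
Cdkn1a upstream start: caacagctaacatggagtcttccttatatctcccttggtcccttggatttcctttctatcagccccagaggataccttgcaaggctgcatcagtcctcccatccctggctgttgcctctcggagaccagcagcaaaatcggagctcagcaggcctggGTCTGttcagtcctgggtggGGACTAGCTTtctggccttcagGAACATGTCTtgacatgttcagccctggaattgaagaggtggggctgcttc
Cdkn1a second start: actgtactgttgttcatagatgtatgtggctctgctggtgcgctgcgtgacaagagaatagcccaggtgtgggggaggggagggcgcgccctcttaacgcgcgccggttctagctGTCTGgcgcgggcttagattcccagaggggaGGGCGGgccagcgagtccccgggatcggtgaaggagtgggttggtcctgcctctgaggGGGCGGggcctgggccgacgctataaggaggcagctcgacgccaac
Cdkn2b: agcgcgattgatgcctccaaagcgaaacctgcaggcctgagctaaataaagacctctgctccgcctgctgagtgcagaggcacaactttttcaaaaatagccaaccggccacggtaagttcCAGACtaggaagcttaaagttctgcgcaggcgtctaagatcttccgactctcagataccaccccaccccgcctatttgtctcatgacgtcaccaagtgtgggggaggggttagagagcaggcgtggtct
Cdkn1b: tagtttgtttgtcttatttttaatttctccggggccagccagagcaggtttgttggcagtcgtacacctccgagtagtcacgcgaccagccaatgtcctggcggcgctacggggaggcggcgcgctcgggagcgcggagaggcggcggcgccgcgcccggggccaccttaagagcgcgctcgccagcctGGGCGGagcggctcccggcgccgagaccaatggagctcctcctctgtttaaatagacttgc

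The upstream Cdkn1a window held p53 half-sites starting 73 and 51 bases before the start and a SMAD box core 93 bases before it. In the window of its second start, a SMAD box core began 135 bases and GC boxes began 104 and 46 bases before the start. Cdkn2b held a SMAD box core 129 bases before its start, and Cdkn1b held a GC box 61 bases before its start. No match overlapped another in these windows. Entries not printed here held these motifs too. A SMAD box core began 137 and 59 bases before a start of Ccnd3 and 188 bases before a start of Cdkn2c. GC boxes were also in entries of Cdkn2a, Cdkn2c and Ccnd3. Among all 32851 RefSeq windows of the same length, 42.2% held a SMAD box core, 32.7% a GC box and 7.13% a p53 half-site, so the first pair of motifs is common. The E-box bound by MYC and MAX (CACGTG) was in 6.02% of all windows and in none of the 10 entries of these genes. These matches describe letters and show no binding.

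Of the 10 genes, 9 passed the filter on low counts and 8 were lower under the optimized conditions at an adjusted p under 0.05 (edgeR's quasi-likelihood test, adjusted over all 14618 genes tested), whereas 15.2% of all genes tested were called lower. None was called higher, against 14.7% of all genes, and a call in either direction was made for 29.8%. The 8 were Cdkn1a, Cdkn2a, Cdkn2b, Cdkn2c, Ccnd1, Ccnd2, Ccnd3 and Myc, so genes that restrain G1 and genes that drive it were lower together. In each of the 8, every optimized library lay below every control library in CPM (counts per 1e+06 counts of the library, scaled with TMM factors), which held for 22.5% of all genes tested, with the reverse in 21.4%. The median log2 fold change (optimized minus control) of the 9 tested genes was -0.62, against 0.0079 over all genes tested. Cdkn1a and Ccnd1 were lower by more than 2-fold, as were 5.11% of all genes tested at the same adjusted p. Cdkn1b was not called, and Cdkn1c was near 0 in every library.

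**Figure D1:**
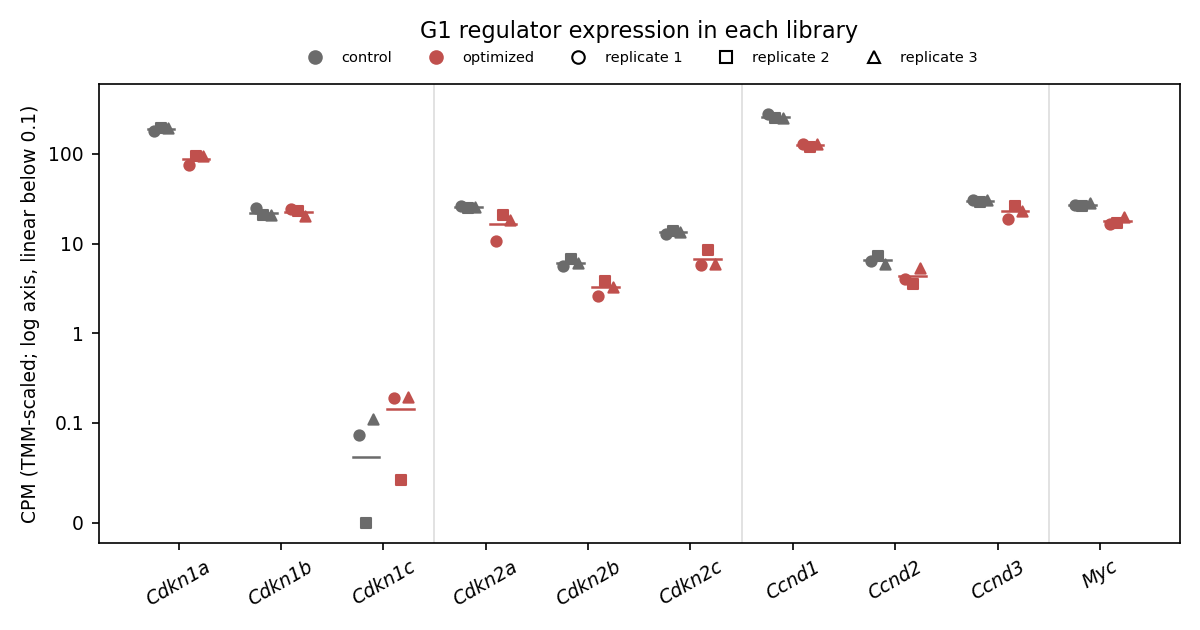
Expression of the 10 G1 regulators in each of the 6 libraries, as TMM-scaled CPM on a log axis that is linear below 0.1, with control libraries in grey, optimized libraries in red, a marker shape for each replicate number and a bar at each group's mean. The red points lie below the grey points in Cdkn1a, Cdkn2a, Cdkn2b, Cdkn2c, all 3 D cyclins and Myc, mix with them in Cdkn1b, and lie near 0 with them in Cdkn1c.

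The libraries summed to between 20628148 and 27261839 counts, and the share of counts in a library's top 10 genes was 14.3% to 17.2% in the control and 19.0% to 24.1% in the optimized group. Optimized library 1 lay farthest from its group, with a root mean square deviation of 0.31 in log2 CPM, against 0.19 to 0.26 in the other 5. Markers of microglia summed to 6957 to 7129 CPM in the control and 11501 to 13676 CPM in the optimized libraries, with 6 of 9 higher and 2 lower by the same test. The summed markers of other cells were 34.5 to 48.8 and 31.0 to 151 CPM for fibroblasts (0 of 6 called), 129 to 145 and 160 to 197 for oligodendrocytes (1 of 6 higher), 27.1 to 30 and 18.3 to 20.8 for astrocytes (1 of 5 lower), and 2.05 to 3.41 and 3.93 to 4.26 for neurons (1 of 5 higher). The 151 CPM for fibroblasts was that of optimized library 3, against 48.5 and 31.0 CPM in optimized libraries 1 and 2. Pericyte markers summed to 27.7 to 40.4 and 435 to 621 CPM, nearly all of it Cspg4, while Rgs5, Kcnj8 and Abcc9 were at or near 0. Endothelial markers summed to 78.0 to 94.3 and 270 to 348 CPM, nearly all of it Flt1, while Cldn5 and Tek were at or near 0. None of these markers was at 0 in all 6 libraries. Their part in the differences below was not tested, and in bulk RNA fewer cells of a type and less RNA per cell cannot be told apart.

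Cdkn1a (chromosome 17, 29309936 to 29319701, plus strand, GRCm39) encodes p21, the CIP/KIP inhibitor that p53 induces after DNA damage. It was the most abundant inhibitor in FPKM. It measured 182, 193 and 193 CPM in control replicates 1 to 3, against 74.7, 94.2 and 95.2 CPM in optimized replicates 1 to 3. Every optimized library lay far below every control library, and optimized library 1 was the lowest. The mean fell from 189 ± 6.51 to 88.0 ± 11.6 CPM (SD, n = 3 per group), which left 46.6% of the control level. The log2 fold change was -1.10 (SE 0.11, 95% interval -1.34 to -0.86, edgeR adjusted p = 3.5e-05), and 4.57% of the genes tested had a fold change as low or lower.

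Cdkn1b (chromosome 6, 134897364 to 134902476, plus strand) encodes p27, which holds resting cells out of the cycle and is controlled largely at the level of protein turnover. Its control libraries measured 24.7, 20.6 and 21.0 CPM and its optimized libraries 24.5, 23.1 and 20.2 CPM. The groups overlapped, and library 1 was the highest in both. The log2 fold change was 0.032 (SE 0.12, edgeR adjusted p = 0.87), and its 95% interval, -0.23 to 0.29, does not contain a fold change as low as that of Cdkn1a, Cdkn2b or Cdkn2c. The ratio of Cdkn1a to Cdkn1b in FPKM, a level per length, was 8.68 to 11.1 in the control and 3.61 to 5.58 in the optimized libraries.

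Cdkn1c (chromosome 7, 143012069 to 143014806, minus strand) encodes p57, the remaining CIP/KIP inhibitor. It received 2, 0 and 3 reads under control and 4, 1 and 4 under optimized conditions, did not pass the filter and was not tested. With at most 4 counts in any library, no fold change is given.

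Among the INK4 genes, Cdkn2b and Cdkn2c were close to 2-fold lower, and Cdkn2a varied most between the optimized libraries. Cdkn2a (chromosome 4, 89192708 to 89212890, minus strand) encodes p16Ink4a and, in another reading frame, p19Arf, which stabilises p53. Both transcripts enter 1 gene count and could not be separated. It measured 26.2, 24.8 and 25.9 CPM in the control and 10.7, 20.9 and 18.3 CPM in the optimized libraries. All 3 optimized libraries were lower, and library 1 stood well below the other 2. The mean fell from 25.6 ± 0.71 to 16.6 ± 5.32 CPM, with a log2 fold change of -0.62 (SE 0.20, 95% interval -1.07 to -0.17, edgeR adjusted p = 0.042). Without optimized library 1 the log2 fold change was -0.38 (edgeR adjusted p = 0.0090), and without optimized library 3 or any 1 control library the call was lost, at adjusted p-values of 0.066 to 0.11.

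Cdkn2b (chromosome 4, 89223204 to 89229276, minus strand), 10313 bases from Cdkn2a, encodes p15, the INK4 inhibitor best known as a TGF-β target. It had 130, 165 and 165 counts in the control and 55, 91 and 67 in the optimized libraries, or 5.68, 6.73 and 6.04 against 2.60, 3.87 and 3.24 CPM. The highest optimized library remained well below the lowest control library. The log2 fold change was -0.92 (SE 0.19, 95% interval -1.34 to -0.50, edgeR adjusted p = 0.0042), so 52.8% of the control level was left. The ratio of Cdkn2a to Cdkn2b in FPKM overlapped between the groups, at 4.53 to 5.65 in the control and 5.04 to 6.92 in the optimized libraries.

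Cdkn2c (chromosome 4, 109517957 to 109524386, minus strand) encodes p18 and lies 20.3 Mb from the other INK4 pair. It measured 12.9, 13.9 and 13.6 CPM in the control and 5.73, 8.47 and 5.95 CPM in the optimized libraries. The control libraries were close together and the optimized libraries all lay lower, with library 2 the highest. The mean fell from 13.5 ± 0.56 to 6.72 ± 1.52 CPM, a log2 fold change of -1.0 (SE 0.16, 95% interval -1.36 to -0.64, edgeR adjusted p = 0.0010). Cdkn2d, the remaining INK4 gene, which encodes p19Ink4d and is not among the 10, measured 6.03, 9.34 and 7.83 CPM in the control and 7.43, 11.2 and 9.63 CPM in the optimized libraries. These groups overlapped, and the log2 fold change of 0.28 (SE 0.20, 95% interval -0.16 to 0.73) did not pass the test (edgeR adjusted p = 0.33). The FPKM ratio of Cdkn2c to Cdkn2d was accordingly 0.85 to 1.21 in the control and 0.35 to 0.44 in the optimized libraries.

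**Figure D2:**
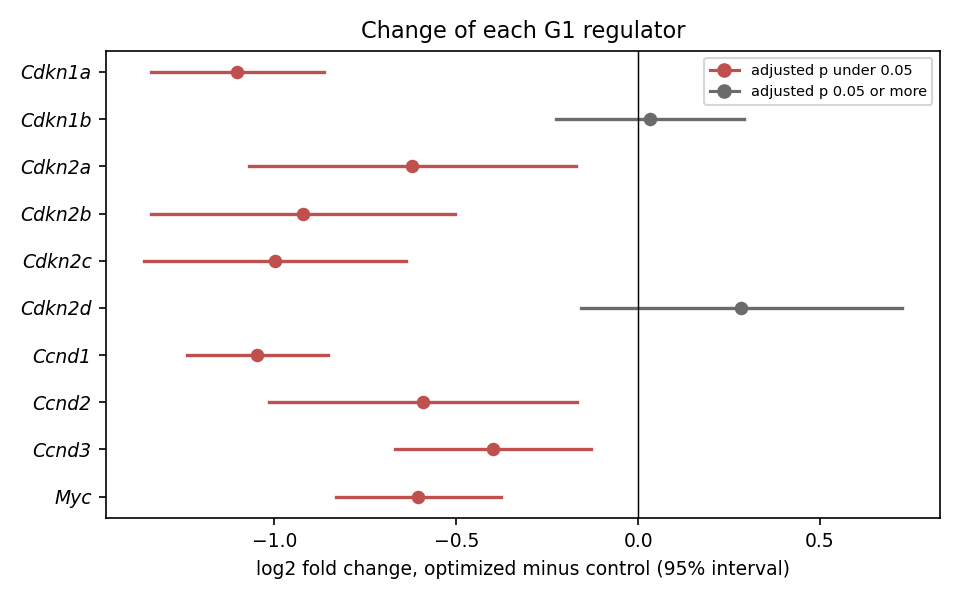
Log2 fold change (optimized minus control) of each tested G1 regulator and of Cdkn2d, with its 95% interval from the edgeR fit on 3 libraries per group, in red where the adjusted p was under 0.05. The intervals of Cdkn1a, Cdkn2b, Cdkn2c, Ccnd1 and Myc lie clear of 0, those of Cdkn2a, Ccnd2 and Ccnd3 end nearer to it, at -0.17, -0.17 and -0.13, and those of Cdkn1b and Cdkn2d span it.

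The D cyclins, which activate CDK4 and CDK6 in response to growth factors, were all lower, and Ccnd1 had the lowest fold change. Ccnd1 (chromosome 7, 144483668 to 144493662, minus strand) had 6439, 6129 and 6842 counts in the control and 2711, 2817 and 2692 in the optimized libraries, or 77.3, 69.0 and 64.7 against 32.5, 28.0 and 32.3 FPKM. The 3 optimized libraries were close together and all far below the control libraries. The mean fell from 261 ± 18.1 to 126 ± 5.48 CPM, a log2 fold change of -1.05 (SE 0.087, 95% interval -1.24 to -0.85, edgeR adjusted p = 1.3e-05). Of the 4783 exon bases of Ccnd1, 2315 overlap exons of LTO1 on the opposite strand, and the strand setting of the counting is not given in the sources used here, so reads of Ccnd1 and LTO1 cannot be told apart there. LTO1 itself fell from 187 ± 12.6 to 102 ± 1.74 CPM (log2 fold change -0.87, SE 0.083, edgeR adjusted p = 3.3e-05). The ratio of Ccnd1 to LTO1 in FPKM was 2.04 to 2.09 in the control and 1.72 to 1.90 in the optimized libraries.

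Ccnd2 (chromosome 6, 127102125 to 127129156, minus strand) was the least abundant D cyclin per length. It had 146, 179 and 160 counts in the control and 86, 83 and 111 in the optimized libraries, or 6.38, 7.30 and 5.86 against 4.07, 3.53 and 5.37 CPM. Optimized library 3 came close to control library 3, but the groups did not overlap. The log2 fold change of -0.59 (SE 0.19, 95% interval -1.02 to -0.17, edgeR adjusted p = 0.040) lost its call without optimized library 2 or any 1 control library, at adjusted p-values of 0.055 to 0.15.

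Ccnd3 (chromosome 17, 47815767 to 47910624, plus strand) measured 30.3, 29.2 and 30.7 CPM in the control and 19.0, 26.1 and 23.3 CPM in the optimized libraries. Optimized library 1 was again the lowest and library 2 lay nearest to the control libraries. The mean fell from 30.1 ± 0.77 to 22.8 ± 3.56 CPM, and the log2 fold change of -0.40 (SE 0.12, 95% interval -0.67 to -0.13, edgeR adjusted p = 0.031) was the smallest among the 8 genes called. Without optimized library 3 or any 1 control library it was not called (adjusted p of 0.075 to 0.092), and leaving out optimized library 1 gave -0.28 (edgeR adjusted p = 0.033). Its exons share 369 bases with Bysl, a ribosome biogenesis gene on the opposite strand, whose log2 fold change of -0.13 (SE 0.12) did not pass the test (edgeR adjusted p = 0.47).

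Myc (chromosome 15, 61857227 to 61862223, plus strand), the transcription factor that promotes cell growth and entry into S phase, had 612, 639 and 767 counts in the control and 353, 399 and 404 in the optimized libraries, or 11.5, 11.3 and 11.4 against 6.64, 6.23 and 7.62 FPKM. The libraries of each group were close to each other and the groups were clearly separate. The mean fell from 27.0 ± 1.02 to 17.7 ± 1.56 CPM, a log2 fold change of -0.60 (SE 0.10, 95% interval -0.83 to -0.38, edgeR adjusted p = 0.0013). The interval of Myc does not contain the log2 fold change of Cdkn1a or of Ccnd1, a comparison that was not tested further.

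Levels of different genes were compared in FPKM, as the deposited values per length and library. In the control libraries the order was Cdkn1a (94.3 ± 3.63), Ccnd1 (70.3 ± 6.43), Cdkn2a (22.9 ± 0.86), Ccnd3 (12.2 ± 0.29), Myc (11.4 ± 0.13), Cdkn1b (9.35 ± 1.13), Cdkn2c (6.07 ± 0.32), Cdkn2b (4.49 ± 0.46), Ccnd2 (0.80 ± 0.11) and Cdkn1c (0.034 ± 0.030). In the optimized libraries Cdkn1a (39.8 ± 4.44), Ccnd1 (30.9 ± 2.55) and Cdkn2a (13.4 ± 3.88) still led, followed by Cdkn1b (8.67 ± 0.95), Ccnd3 (8.36 ± 1.00) and Myc (6.83 ± 0.71), and then by Cdkn2c (2.73 ± 0.50), Cdkn2b (2.13 ± 0.33), Ccnd2 (0.49 ± 0.12) and Cdkn1c (0.069 ± 0.043). In FPKM, Cdkn1b thus stood behind Ccnd3 and Myc in the control and ahead of them in the optimized libraries. In the optimized libraries, however, its values of 7.84 to 9.71 overlapped the 7.24 to 9.15 of Ccnd3. The ranges of Cdkn2c and Cdkn2b in the optimized libraries, 2.43 to 3.31 and 1.78 to 2.45, also overlapped. The lengths behind the FPKM values are shorter than the summed GENCODE exons for several of these genes, so the order depends on the annotation used. In counts per kilobase of GENCODE exons, Cdkn1b stood ahead of Ccnd3 and behind Myc in both groups. The change in its rank is thus limited to FPKM.

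As shares of summed FPKM, Ccnd1 was 84.4% ± 0.86 of the D cyclins in the control and 77.7% ± 3.11 in the optimized libraries, while Ccnd3 was 14.7% ± 0.82 and 21.1% ± 3.20. Cdkn1a was 68.7% ± 1.19 of the 6 inhibitors in the control and 59.6% ± 2.14 in the optimized libraries, and Cdkn1b was 6.82% ± 0.82 and 13.2% ± 3.09. Cdkn2a was 16.7% ± 0.68 and 19.8% ± 3.82, with overlapping groups. Counts per kilobase of GENCODE exons instead gave Cdkn1a 50.1% and 40.7% of the inhibitors and Ccnd1 93.2% and 90.0% of the D cyclins. The sizes of the shares thus depend on the lengths, and both shares were lower in the optimized libraries on either scale. The leading inhibitor depends on them too. By GENCODE exons Cdkn2a was 43.3% and Cdkn1a 37.7% in optimized library 2, against 41.1% and 41.5% in optimized library 3. The summed FPKM of the D cyclins was 77.3 to 90.6 in the control and 37.5 to 41.6 in the optimized libraries, and that of the inhibitors 133 to 142 and 58.0 to 71.4. FPKM values were used without TMM factors. Every optimized library lay below every control library in 32.7% of all genes tested in FPKM, against 22.5% in CPM. The ratio of Ccnd1 to Cdkn1a, chosen with the other ratios here after the values were seen, overlapped between the groups at 0.70 to 0.84 and 0.69 to 0.93.

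**Figure D3:**
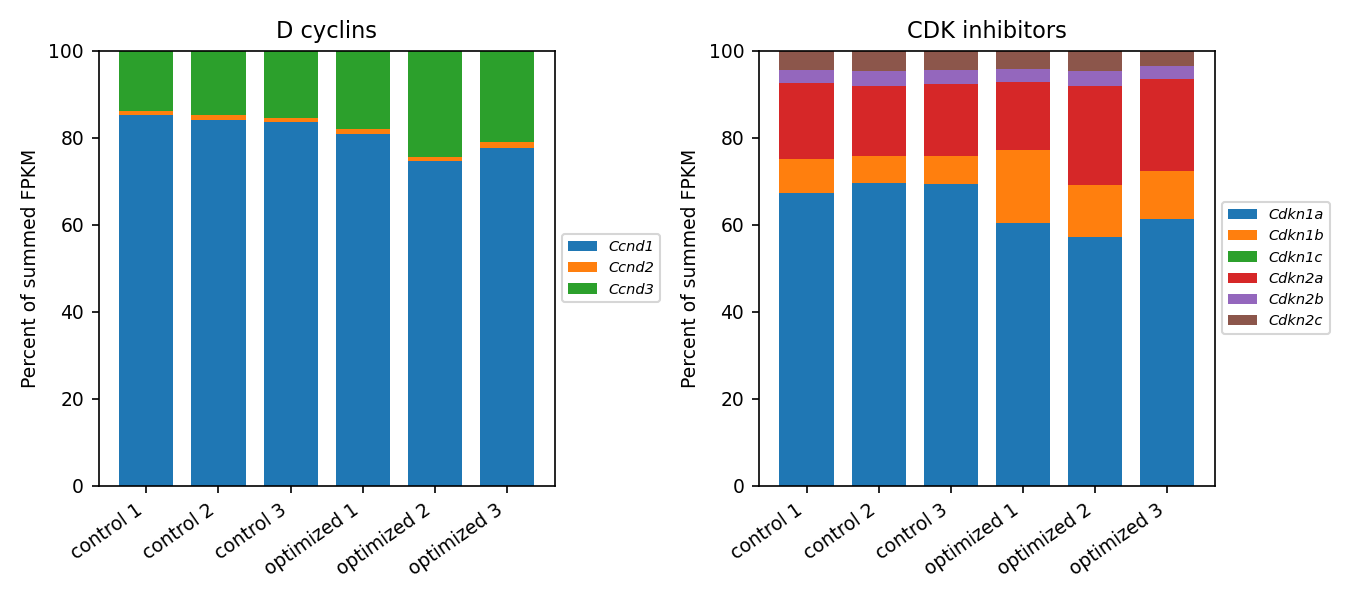
Share of each gene in the summed FPKM of the 3 D cyclins (left) and of the 6 CDK inhibitors (right) in each library, as stacked bars from 0 to 100%. Ccnd1 and Cdkn1a are the largest parts in every library, with smaller shares in the 3 optimized bars, and Cdkn1c is too small to see.

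The genes around these regulators were read in 9 lists, 120 genes of which 118 were tested. Of those, 52 were lower and 7 higher, and their median log2 fold change was -0.24, beside 15.2% lower and 14.7% higher among all genes tested. Among 10 kinases and cyclins of the G1/S step, 4 were lower and none higher, with a median of -0.19. Cdk6, a partner of the D cyclins, fell from 80.2 ± 12.9 to 31.7 ± 8.25 CPM (log2 fold change -1.34, SE 0.18, edgeR adjusted p = 0.00033), while Cdk4, their other partner, measured 82.7 ± 5.81 and 87.0 ± 13.8 CPM and was not called (log2 fold change 0.074, SE 0.12, edgeR adjusted p = 0.70). Of the 3440 exon bases of Cdk4, 646 overlap exons of a gene on the opposite strand with nearly as many counts. The cyclins of the next step, Ccne1 (-0.69), Ccne2 (-0.58) and Ccna2 (-1.01), were lower, and their partner Cdk2 was not called (-0.17). Ccne1 was not called without control library 2 or 3 or optimized library 3 (-0.70 to -0.60). These 3 cyclin genes share exon bases with a neighbour on the opposite strand that has more counts, so reads there cannot be told apart.

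Among 13 pocket proteins and E2F factors, 7 were lower and 2 higher (against 15.2% and 14.7% of all genes tested), with a median of -0.33. The lowest was E2f7 (-1.26), a repressor of the family, and E2f1, an activator that releases S phase genes, was also lower (-0.48, edgeR adjusted p = 0.0039). E2f2 and E2f3, also counted among the activators, were the 2 that rose. E2f2 rose from 4.76 ± 0.75 to 16.5 ± 1.77 CPM (log2 fold change 1.79, SE 0.15, edgeR adjusted p = 1.5e-05), and E2f3 from 27.0 ± 0.38 to 39.4 ± 2.13 CPM (0.54). Rb1, the retinoblastoma gene on which the D cyclins act, was not called (0.084, edgeR adjusted p = 0.66).

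Of 11 ligase subunits that mark these inhibitors and cyclins for degradation, 1 was lower and 1 higher (against 15.2% and 14.7% of all genes tested). Their median was -0.09. Skp2, which recruits p27, fell from 12.1 ± 0.67 to 7.75 ± 0.72 CPM (log2 fold change -0.64, SE 0.12, edgeR adjusted p = 0.0034), and Fbxo31, a receptor for cyclin D1, rose from 13.7 ± 1.01 to 22.7 ± 3.21 CPM (0.73, SE 0.13). The other 9 subunits, among them Fbxo4 (-0.16) and Ambra1 (0.073), were not called. Without optimized library 2 there were 2 lower, and library size alone gave 3. Protein levels were not measured.

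Around Myc, 9 of 11 partner genes of MYC and MAX were tested, 2 were lower and 1 was higher, with a median of -0.0062. Over all genes tested, 15.2% were lower and 14.7% higher. Max, the obligate partner of MYC, fell from 96.0 ± 8.05 to 58.0 ± 4.67 CPM (log2 fold change -0.73, SE 0.098, edgeR adjusted p = 0.00033). The ratio of Myc to Max in FPKM overlapped between the groups, at 0.30 to 0.34 and 0.31 to 0.36. The MAX-binding repressors went in opposite directions, with Mxd1 lower (-1.22) and Mxi1 higher (1.13). Mycn and Mycl, the other genes of the MYC family, did not pass the filter. A list of 18 genes known as MYC targets included genes of ribosome production, nucleotide synthesis and glycolysis. Of the 18, 5 were lower (Rrs1, Nop56, Nolc1, Hspd1 and Ddx21) and 1 higher (Ldha), with a median of -0.15. Rrs1 was the lowest (-0.57, edgeR adjusted p = 0.0077), and the rise of Ldha (0.50, edgeR adjusted p = 0.013) was not called without control library 1, control library 2 or optimized library 3 (0.44 to 0.47). Without 1 control library 2 of these genes were lower, without optimized library 3 there were 3, and without optimized library 1 or 2 there were 4 or 2 higher. Library size alone as the scale gave 9 lower. Of the 2048 exon bases of Rrs1, 806 overlap exons of a gene on the opposite strand.

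Among p53 and genes known as its targets or regulators, 17 in all and without Cdkn1a, 7 were lower and 2 higher. The shares over all genes tested were 15.2% and 14.7%, and the median of the 17 was -0.31. Trp53 itself fell from 93.1 ± 6.74 to 73.8 ± 3.97 CPM (log2 fold change -0.34, SE 0.088, edgeR adjusted p = 0.016), a call lost without control library 3 (-0.28). Mdm2, the p53 ligase that p53 induces, was not called (-0.20, edgeR adjusted p = 0.13) but passed the test without optimized library 1 (-0.24) and by limma on log2(FPKM + 0.1) (-0.34) and on log2(FPKM + 1) with genes under a mean FPKM of 1 left out (-0.32). Gdf15, a secreted stress factor, was the lowest (-2.05, SE 0.28), and the 2 that rose were Gadd45a (1.24, SE 0.11), a growth arrest gene, and Phlda3 (1.01, SE 0.18). Of the 1774 exon bases of Gadd45a, 990 overlap exons of a gene on the opposite strand, so reads there cannot be told apart.

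Of 13 regulators of the inhibitor genes, such as SMAD and FOXO factors and polycomb proteins, 2 were lower and none higher, with a median of -0.071. Over all genes tested, 15.2% were lower and 14.7% higher, so the count of lower regulators is near the share over all genes. Smad3, which carries the TGF-β signal to the nucleus, fell from 40.2 ± 3.68 to 27.4 ± 2.16 CPM (log2 fold change -0.55, SE 0.10, edgeR adjusted p = 0.0026), and Ezh2, the polycomb methyltransferase, was also lower (-0.55), a call lost without control library 1 or 3 (-0.52 in both). Library size alone as the scale gave 4 of the 13 lower. Foxo3 (-0.12) and Bmi1 (-0.11), a polycomb protein known to repress Cdkn2a, were not called.

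Downstream of G1, 11 of 14 S phase genes and 13 of 13 mitosis genes were lower and none higher, with medians of -0.79 and -1.02. Over all genes tested, 15.2% were lower and 14.7% higher. In the S phase list the called genes ranged from Cdc6 (-1.74), which loads the replicative helicase, to Cdc45 (-0.38). Birc5 (-1.33), the gene of survivin, and Cdc20 (-0.53) were the extremes of the mitosis list. Cdc45 was not called without any 1 control library or optimized library 3 (-0.40 to -0.35), and neither was Cdc20 without control library 1 or 3 or optimized library 3 (-0.48 to -0.46). Rb1, Skp2, Nop56, Ezh2, Cdc45 and Cdc20 also share exon bases with a gene that has more counts.

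**Figure D4:**
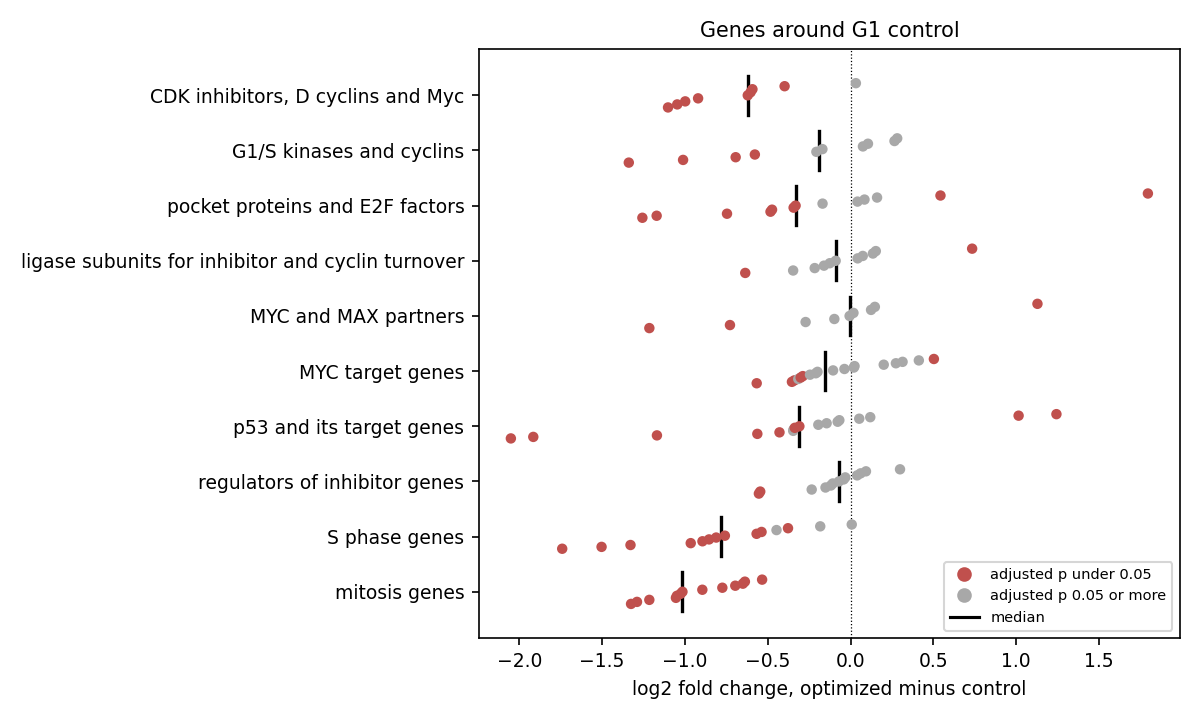
Log2 fold change (optimized minus control) of each tested gene in the 10 G1 regulators and in the 9 lists around them, 1 point per gene, red where the edgeR adjusted p was under 0.05, with a bar at the median of the list. The medians run from -1.02 for mitosis genes to -0.0062 for partners of MYC and MAX, and the points farthest to the right are E2f2, Gadd45a, Mxi1 and Phlda3.

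Scaling by library size alone moved the median of all genes by -0.13 on the log2 scale and the share of calls that were higher from 49.1% to 32.3%, with 3168 genes lower and 1513 higher in place of 2218 and 2142. All 8 genes remained called and lower under it. Cdkn1b stayed uncalled in all 15 alternative settings, with log2 fold changes from -0.11 to 0.11.

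**Figure D5:**
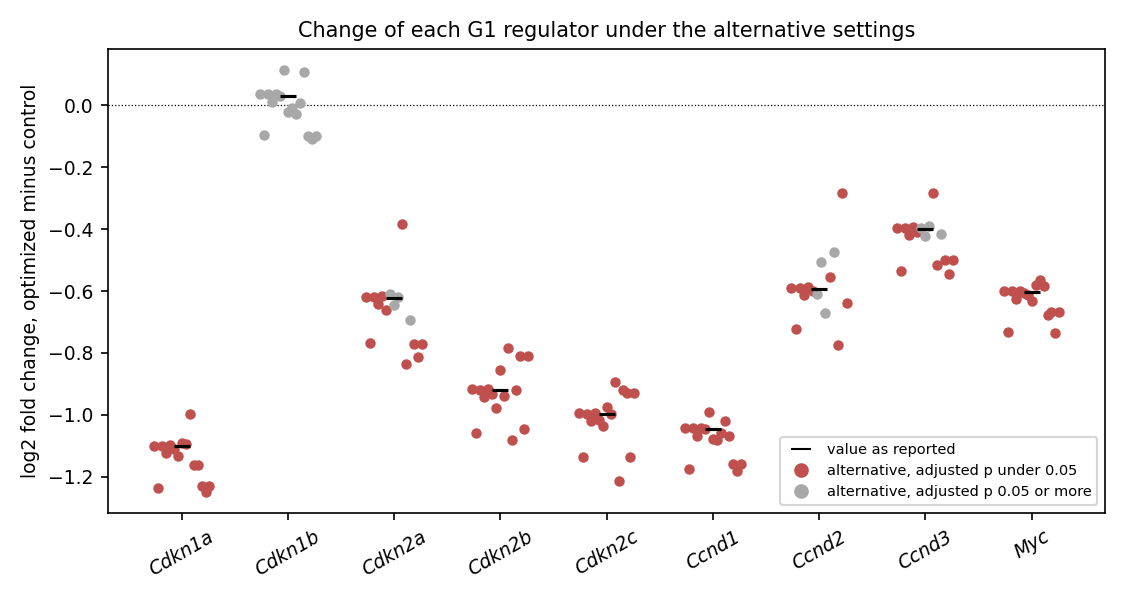
Log2 fold change (optimized minus control) of each tested G1 regulator in the edgeR fit reported here (black bar) and in the alternative settings (points, red where the adjusted p was under 0.05, grey where it was 0.05 or more). Grey points occur in Cdkn1b under every setting and in Cdkn2a, Ccnd2 and Ccnd3 where 1 library was left out, while Cdkn1a, Cdkn2b, Cdkn2c, Ccnd1 and Myc are red throughout.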

How the data were processed

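RNA of 6 libraries was sequenced with paired ends. The authors used HISAT2 to map reads to mm39 and featureCounts to count them per gene, both in Galaxy, and deposited raw counts without normalization and FPKM values, both for 41079 symbols. Tool versions, annotation and strand setting are not given in the sources used here. Groups and columns were assigned from the labels. Counts were filtered with filterByExpr, scaled with TMM factors and compared with edgeR 4.0.16 (quasi-likelihood, no covariate, Benjamini-Hochberg over 14618 genes, threshold 0.05) in R 4.3.3, after the steps were tested on simulated data. The SE is the log2 fold change divided by the square root of F, and intervals are at 95%. Totals were 20628148 to 27261839 counts, and genes with few counts carry larger errors. Alternatives were DESeq2 1.42.0, limma 3.58.1 on log2(FPKM + 1) and log2(FPKM + 0.1), other factors and filters, the replicate number as a block and each library left out.

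All 10 genes are named. From each list the text names the extreme genes called and core partners set with the list. LTO1 and Bysl overlap Ccnd1 and Ccnd3. They and E2f3, Ccna2, Fbxo4, Ambra1, Phlda3, Nop56, Nolc1, Hspd1 and Ddx21 were named after their values were seen. The genes and lists were chosen with earlier results of these data known. Positions follow GENCODE M39 (GRCm39), in which 35087 of the symbols were found.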

Additional observations from a re-analysis of the deposited data

How the results depend on the processing

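Cdkn1a, Cdkn2b, Cdkn2c, Ccnd1 and Myc kept their call and direction in all 15 alternatives, with log2 fold changes of -1.25 to -1.0, -1.08 to -0.79, -1.21 to -0.89, -1.18 to -0.99 and -0.74 to -0.56. The number of the 10 genes called lower was 5 to 8 with 1 library left out, and 5 without control replicate 1, 2 or 3, where Cdkn2a, Ccnd2 and Ccnd3 were lost. These fits have fewer libraries. The number called lower was 8 in the other settings, except 7 with a mean FPKM of at least 1, where Ccnd2 was not tested. Limma on log2(FPKM + 1) gave Ccnd2 -0.28, a scale that understates the change of low genes. Genes of the lists called higher numbered 6 to 11 with 1 library left out (11 without optimized replicate 1), against 7. Counts per kilobase of GENCODE exons moved Ccnd1 to 93.2% and 90.0% of the D cyclins, and Cdkn1a to 50.1% and 40.7% of the inhibitors, in control and optimized libraries. Limma on FPKM put 28.4% to 31.3% of calls higher. It called 1 E2F gene higher in place of 2, 4 ligase subunits lower in place of 1 and 9 MYC targets lower in place of 5. No called value changed its direction. With no filter on low counts, Cdkn1c gave an adjusted p of 0.63.

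With the replicate number as a block, the 8 genes remained called lower and the count of all genes called was 4924, against 4360. Same-numbered libraries correlated in their deviations at 0.27, -0.012 and 0.18. Control 2 and control 3 did not correlate best with their own numbers, control 3 only narrowly (0.185 against 0.189 with optimized 2). The numbers were therefore not taken as pairs.

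Among the G1 regulators tested, Ccnd2 and Cdkn2b had the fewest counts, at 55 to 179 per library. At 0 to 4 counts Cdkn1c cannot be judged.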
